A study of Mus musculus with 30 samples.

Results

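Mitochondrial tRNA-Asp (gene mt-Td) and mitochondrial tRNA-Lys (gene mt-Tk) are 2 of the 22 tRNAs encoded by the mouse mitochondrial genome. Their fragments were taken as all deposited sequences that matched, over the whole sequence and in the sense direction, the GENCODE tRNA with the 3′ CCA added. The match gave 314 distinct sequences with 5571 reads for mt-Td and 568 distinct sequences with 41855 reads for mt-Tk, summed over 30 libraries. Sequences that also lay in another transcript or mitochondrial tRNA made up 0.305% of the mt-Td reads and 0.0956% of the mt-Tk reads. Nuclear copies of mitochondrial DNA were not checked.

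The libraries held small RNAs from the cortex of 6-month-old mice. WT mice were the littermates of AD mice, which were hemizygous 5XFAD animals of both sexes on a C57BL/6J background. The 5XFAD transgenes are driven by the neuronal Thy1 promoter. PANDORA-seq (8 WT and 8 AD libraries) treated the gel-purified RNA with T4PNK, which repairs RNA ends, and AlkB, which removes methyl groups from some bases, before the library was built, and traditional-seq (7 WT and 7 AD libraries) used neither enzyme.

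Each mature mitochondrial tRNA is cut out of a long transcript of the mitochondrial DNA strand, receives CCA at its 3′ end after transcription and carries 1 amino acid to the mitochondrial ribosome. mt-Td reads aspartate codons and mt-Tk reads lysine codons in the mRNAs for the respiratory chain subunits. Cleavage of tRNAs in or near their loops gives tRNA-derived small RNAs (tsRNAs), which are named by the part of the tRNA they keep: 5′ fragments start at base 1, 3′ fragments reach the 3′ end and internal fragments do neither.

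Both genes are on the forward strand of the mitochondrial chromosome, on either side of mt-Co2, which encodes a cytochrome c oxidase subunit. In GRCm38, mt-Td (ENSMUSG00000064353.1) spans chrM:6942-7011, and mt-Tk (ENSMUSG00000064355.1) spans chrM:7700-7764, between mt-Co2 and mt-Atp8. Both lie in single-exon tRNA genes, so a fragment has no intron or UTR. The whole molecules are printed 5′ to 3′ with CCA and with the anticodon in capitals.
mt-Td: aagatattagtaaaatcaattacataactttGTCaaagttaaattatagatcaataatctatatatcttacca
mt-Tk: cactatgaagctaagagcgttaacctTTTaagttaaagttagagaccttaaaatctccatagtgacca
The anticodon takes bases 32 to 34 of mt-Td and bases 27 to 29 of mt-Tk, counted from 1 at the 5′ end of the tRNA. The A and T bases make up 82.9% of the mt-Td gene and 66.2% of the mt-Tk gene.

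The most abundant fragments differed between the 2 tRNAs and between the 2 protocols. They are shown because the cut sites and the comparison of AD with WT turn on them, again with anticodon bases in capitals.
mt-Td 18–51, PANDORA-seq: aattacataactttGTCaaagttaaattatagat
mt-Td 28–52, traditional-seq: ctttGTCaaagttaaattatagatc
mt-Td 28–72, PANDORA-seq, 43–45 nt: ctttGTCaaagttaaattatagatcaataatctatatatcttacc
mt-Tk 1–28, PANDORA-seq: cactatgaagctaagagcgttaacctTT
mt-Tk 1–39, PANDORA-seq: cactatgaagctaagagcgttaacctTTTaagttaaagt
mt-Tk 32–49, traditional-seq: gttaaagttagagacctt
mt-Tk 1–45, PANDORA-seq, 43–45 nt: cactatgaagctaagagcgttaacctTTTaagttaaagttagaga
The numbers are the first and last tRNA base. The mt-Td fragment 18–51 runs from chrM:6959-6992 and the mt-Tk fragment 1–28 from chrM:7700-7727, while the mt-Td fragment 28–72 begins at 6969, passes the end of the gene at 7011 and holds 2 bases of the added CCA.

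PANDORA-seq libraries held 54926347 to 105876141 reads and traditional-seq libraries 9370669 to 17053412 reads. Reads identical to the mature brain microRNA miR-128-3p were at 453 to 1907 RPM (reads per 1000000 reads of the library) in PANDORA-seq. They were at 16154 to 64210 RPM in traditional-seq. Reads identical to miR-451a, the red blood cell microRNA, were at 0.0585 to 8.12 RPM over the 30 libraries. MicroRNA reads of other lengths are left out of these values. PANDORA-seq files ran to 45 nt and traditional-seq files to 42 nt. Reads of 43–45 nt took 15.5% ± 3.19 (SD, n = 8) of all reads in WT and 4.95% ± 2.90 (SD, n = 8) in AD, so lengths of 15–40 nt and 43–45 nt were described apart. Each library came from a separate mouse within its protocol, and the tests measure the spread between libraries.

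At 15–40 nt, fragments of neither tRNA differed between AD and WT cortex beyond the spread between libraries. mt-Tk fragments were found at 5.69 RPM (lowest), 23.8 RPM (median) and 65.5 RPM (highest) in the 8 WT PANDORA-seq libraries and at 7.60, 28.5 and 51.0 RPM in the 8 AD libraries. The AD values lay inside the WT range. mt-Td fragments were rarer, with 0.244, 1.64 and 2.42 RPM in WT and 0.273, 1.16 and 4.15 RPM in AD. Again the groups overlapped, and the highest AD library exceeded every WT library. On the log2(RPM + 0.1) scale AD minus WT was 0.19 (SE 0.49) for mt-Tk, with p = 0.702 and adjusted p = 0.925 by the exact permutation test over libraries, two-sided. It was -0.16 (SE 0.54) for mt-Td, with p = 0.766 and adjusted p = 0.93 by the same exact test. Adjusted values cover the 22 mitochondrial tRNAs in 3 length classes. Of these 22 tRNAs, 0 (0%) passed adjusted p < 0.05 at 15–40 nt in either direction, and 1 had an unadjusted p under 0.05. In bulk tissue, fewer cells of a type and less RNA per cell cannot be told apart.

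Traditional-seq gave the same picture for genotype with other levels. There, mt-Tk fragments were at 4.02, 12.1 and 28.0 RPM (lowest, median, highest) in 7 WT libraries and at 5.22, 12.8 and 27.5 RPM in 7 AD libraries. mt-Td fragments were at 4.48, 16.1 and 27.3 RPM in WT and at 7.18, 12.9 and 19.9 RPM in AD. The WT and AD ranges overlapped for both tRNAs. AD minus WT was -0.26 (SE 0.49) for mt-Tk and -0.02 (SE 0.41) for mt-Td on the log2(RPM + 0.1) scale, each with adjusted p = 1 by the exact permutation test. None of the 22 tRNAs (0%) passed in either direction, and 0 had an unadjusted p under 0.05. The AD effect did not differ detectably between the protocols, with differences of 0.45 for mt-Tk (p = 0.51) and -0.14 for mt-Td (p = 0.834) on the log2 scale by a permutation test of the genotype labels within each protocol, and adjusted p = 0.994 for both.

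**Figure D1:**
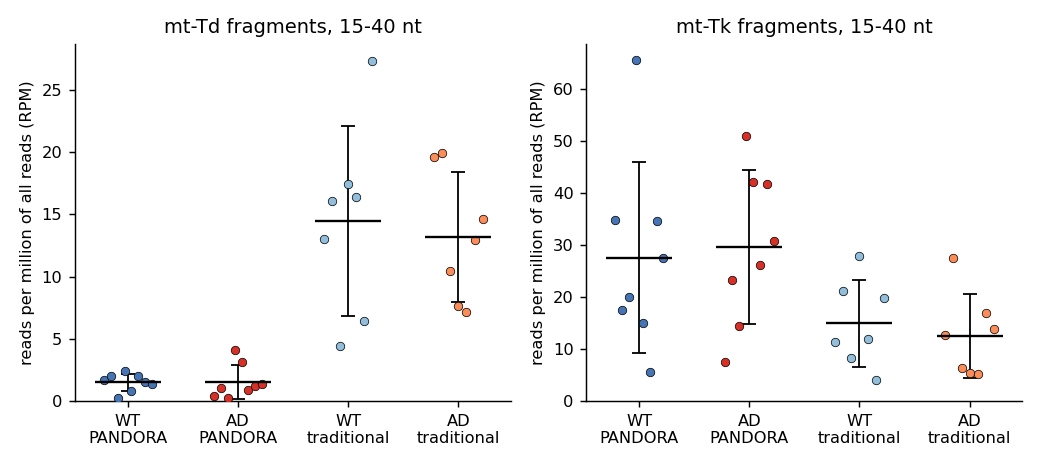
Level of exact mt-Td and mt-Tk fragments of 15–40 nt (RPM, linear axis) in each library of the 4 groups. Each point is 1 library, the line is the mean and the bar the SD, and the WT and AD points of a protocol overlap for both tRNAs while all 16 PANDORA-seq points of mt-Td sit below all 14 traditional-seq points.

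The protocol moved the 2 tRNAs in opposite directions. mt-Td fragments were 9.39-fold lower in PANDORA-seq than in traditional-seq, at 1.55 ± 1.05 RPM (SD, n = 16) against 13.8 ± 6.30 RPM (SD, n = 14), a log2 difference of -3.23 (SE 0.33). All 16 PANDORA-seq libraries lay below all 14 traditional-seq libraries, which held for 11 of the 22 mitochondrial tRNAs (50%). Its p of 1e-05 was the smallest the 100000 resamples of the permutation test can give, and adjusted p was 1.37e-05. mt-Tk fragments were 2.05-fold higher, at 28.6 ± 16.1 RPM (SD, n = 16) against 13.8 ± 7.97 RPM (SD, n = 14), a log2 difference of 1.04 (SE 0.34), with adjusted p = 0.00651 by the permutation test. For mt-Tk the ranges overlapped, and 7 of 16 PANDORA-seq libraries exceeded every traditional-seq library. In 1 of the 22 tRNAs (4.55%) all 16 did. Within genotypes, the mt-Tk difference was 0.81 with adjusted p = 0.154 among WT libraries, where the call was lost, and 1.26 with adjusted p = 0.0277 among AD libraries, by the exact permutation test. Among all 22 tRNAs, 15 were lower (68.2%) and 4 were higher (18.2%) in PANDORA-seq at adjusted p < 0.05, so mt-Tk was one of a minority and mt-Td one of the majority. RPM is a share of the reads of a library, and exact miR-128-3p reads, with the values above, were higher in all traditional-seq libraries. The deposited names carry 14 codes that recur in both protocols, as many as there are traditional-seq libraries. Up to all traditional-seq RNA samples may thus stand in both, and the test took the libraries as independent.

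The 2 tRNAs can also be compared within a library, where its total read count cancels. PANDORA-seq libraries held 17.6 mt-Tk reads per mt-Td read (geometric mean, n = 8, range 2.84 to 81.9) in WT and 22.9 (n = 8, range 12.3 to 53.1) in AD. In traditional-seq libraries there were 1.02 (n = 7, highest 1.88) in WT and 0.863 (n = 7, highest 1.38) in AD, so all traditional-seq ratios were below all PANDORA-seq ratios. As a ratio of RPM + 0.1, the protocols differed 19.3-fold, with a p of 1e-05 by permutation, the smallest the resamples can give.

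Per 100 nt of tRNA, mt-Tk was the 14th of the 22 tRNAs in PANDORA-seq, at 40.6 ± 26.9 RPM (SD, n = 8) in WT and 43.6 ± 21.7 RPM (SD, n = 8) in AD, and the 21st in traditional-seq, at 22.1 RPM in WT and 18.6 RPM in AD. Its neighbours in the WT PANDORA-seq order, mt-Ta at 46.5 RPM above it and mt-Tr at 31.0 RPM below it, were within its SD. mt-Td was the 21st in PANDORA-seq, at 2.08 ± 0.969 RPM (SD, n = 8) in WT and 2.17 ± 1.87 RPM (SD, n = 8) in AD, and the 22nd and last in traditional-seq, at 19.8 and 18.1 RPM. In WT PANDORA-seq mt-Ti stood above it at 11.2 ± 3.77 RPM (SD, n = 8), beyond both SDs, and mt-Tf below it at 1.06 ± 0.527 RPM (SD, n = 8), within their summed SDs. In traditional-seq mt-Td and mt-Tk were next to each other with SDs of 10.4 and 12.3 RPM in WT, larger than their gap. Over the 16 PANDORA-seq libraries, the tRNAs whose level followed mt-Td most closely were mt-Tc, mt-Ti and mt-Tw, with SDs of the log2 ratio of RPM + 0.1 of 0.52, 0.54 and 0.55. Those nearest to mt-Tk were mt-Tv, mt-Ts1 and mt-Tt, at 0.60, 0.74 and 0.78. The libraries share their depth and total mitochondrial tRNA content, and these SDs are given as a description.

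mt-Tk fragments changed type with the protocol, from internal and 3′ fragments in traditional-seq to 5′ fragments in PANDORA-seq. In PANDORA-seq, 5′ fragments made up 85.8% ± 9.41 (SD, n = 16) of the mt-Tk reads of 15–40 nt, with a range of 53.3% to 93.7%. In traditional-seq they made up 6.70% ± 3.59 (SD, n = 14), with a range of 0.917% to 13.3%, so the ranges were apart. These shares count exact matches, and traditional-seq reads over base 9 of mt-Tk often held a mismatch, as described at the end. With reads of 1 mismatch counted as well, the 5′ share was 10.4% ± 5.47 (SD, n = 14, range 4.07% to 21.1%) in traditional-seq and 85.8% ± 8.96 (SD, n = 16, range 54.9% to 93.7%) in PANDORA-seq, still apart. Internal fragments took 10.8% ± 5.27 against 65.0% ± 12.2, 3′ fragments that end with the whole CCA took 0.0951% ± 0.192 against 16.04% ± 7.57, and 3′ fragments that stop 1 to 3 bases earlier took 3.29% ± 4.30 against 12.3% ± 5.73. Adjusted p was 1.4e-05 for 5′ and CCA fragments and 4e-05 for the trimmed 3′ fragments by the permutation test, adjusted over 88 shares of the 22 tRNAs, of which 83 passed (94.3%). With each distinct sequence counted once, the trimmed 3′ share turned from -8.99 to 5.13 points (PANDORA-seq minus traditional-seq, adjusted p = 0.016 by the permutation test). Among the other 20 tRNAs the share of 5′ fragments was higher in PANDORA-seq in 17 and lower in 2. A higher 5′ share was thus the common direction, and mt-Tk shared it.

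mt-Td fragments were internal under both protocols, at 95.2% ± 4.03 (SD, n = 16) in PANDORA-seq and 94.2% ± 4.54 (SD, n = 14) in traditional-seq (adjusted p = 0.535, permutation test). The share of its 5′ fragments was 0.317% ± 0.753 in traditional-seq and 3.72% ± 4.11 in PANDORA-seq, with adjusted p = 0.00122 by the permutation test. The share of its CCA fragments was 2.91% ± 2.58 and 0.214% ± 0.612, with adjusted p = 6.29e-05 by the same test. These are shares of a tRNA whose level was lower in PANDORA-seq, as given above, and they do not give the level of a type. Both minor types rest on few reads, with 18 reads of 5′ fragments in WT and 41 in AD PANDORA-seq libraries and with 4 and 1 in traditional-seq.

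**Figure D2:**
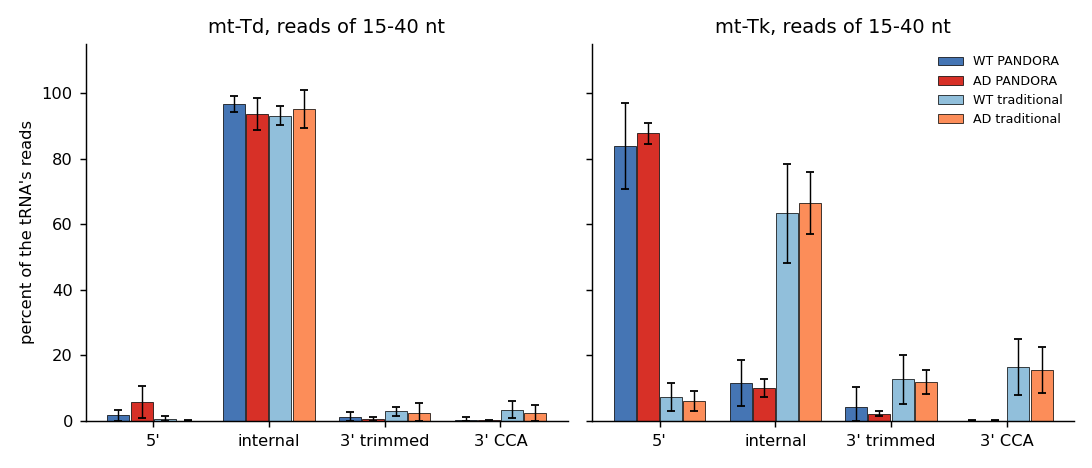
Share of the reads of 15–40 nt of each tRNA (percent) taken by 5′, internal, trimmed 3′ and CCA-ended 3′ fragments in each group, as means with SD over libraries (lower bars stop at 0). For mt-Tk the tallest bar is the 5′ type in both PANDORA-seq groups and the internal type in both traditional-seq groups, and for mt-Td it is the internal type in all 4 groups.

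The fragment types did not differ detectably between AD and WT. 5′ fragments of mt-Tk took 84.0% ± 13.1 (SD, n = 8) in WT and 87.7% ± 3.11 (SD, n = 8) in AD PANDORA-seq libraries, and 1 WT library at 53.3% lay apart from the others, which were at 82.92% or above. For mt-Td the 5′ share was 1.69% ± 1.69 (SD, n = 8) in WT and 5.74% ± 4.90 (SD, n = 8) in AD, with p = 0.0476 by the exact permutation test and adjusted p = 0.933. Of the type shares of the 22 tRNAs, 0 of 85 (0%) passed in PANDORA-seq, where 2 had an unadjusted p under 0.05, and 0 of 87 (0%) passed in traditional-seq, where 0 did.

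The bases at which the fragments began and ended were as distinct as their types. In PANDORA-seq, 59.4% ± 13.7 (SD, n = 16) of the mt-Tk reads of 15–40 nt ended at base 28, the middle base of the anticodon, against 0.284% ± 0.575 (SD, n = 14) in traditional-seq. A further 14.5% ± 10.2 ended at base 39 and 6.95% ± 3.39 at base 33, against 0.0441% and 0.0821%. The sequences from base 1 to these 3 ends held 58.0%, 13.03% and 5.22% of the pooled reads. The most frequent mt-Tk fragment of PANDORA-seq was thus a 5′ fragment whose reads stop inside the anticodon. Whether the RNA itself ended there was not tested, as PANDORA-seq reads ended earlier in other RNAs too. In traditional-seq the ends fell mostly in the 3′ part of the tRNA. There, 14.6% ± 5.93 ended at base 47, 8.06% ± 8.39 at base 48 and 15.5% ± 9.36 at base 49. Near the 3′ end, 9.31% ± 4.86 ended at base 67 and 16.04% ± 7.57 at base 68, the last base of CCA. Base 29, the last anticodon base, held 6.37% ± 3.13. The starts in traditional-seq were spread as well, with 11.3% ± 4.48 at base 32 and 8.86% ± 3.18 at base 33, both 3′ of the anticodon loop, and 6.70% at base 1. Adjusted p was 1.18e-05 for each of these last bases by the permutation test. Over all 22 tRNAs, 168 of 174 last-base shares (96.6%) and 169 of 181 first-base shares (93.4%) differed between protocols at adjusted p < 0.05. A base was tested where its share averaged at least 5% in either protocol, so bases could enter through the protocol where they were high. These p-values and pass rates are therefore a description of the chosen bases.

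mt-Td reads ended in a narrow window 3′ of the anticodon arm. In PANDORA-seq, 72.3% ± 14.6 (SD, n = 16) ended at base 51, and in traditional-seq 60.4% ± 12.7 (SD, n = 14) ended at base 52, while each protocol had under 1% at the end of the other (0.0991% at base 52 and 0.482% at base 51). A lesser pair of ends showed the same offset of 1 base, with 8.87% ± 6.79 at base 46 in PANDORA-seq and 8.53% ± 6.26 at base 47 in traditional-seq. The starts differed more. PANDORA-seq reads began at base 18 in 25.9% ± 13.5 and at base 17 in 16.3% ± 12.3, which is 5′ of the anticodon stem, and traditional-seq reads had 0.570% and 0.424% there. Traditional-seq reads began at base 28 in 42.3% ± 7.10 and at base 29 in 22.4% ± 6.71, just before the anticodon loop, against 12.4% ± 12.1 and 13.9% ± 9.18 in PANDORA-seq. Adjusted p ranged up to 0.00976 for these starts by the permutation test, a description as well, since the bases were chosen in the same way.

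**Figure D3:**
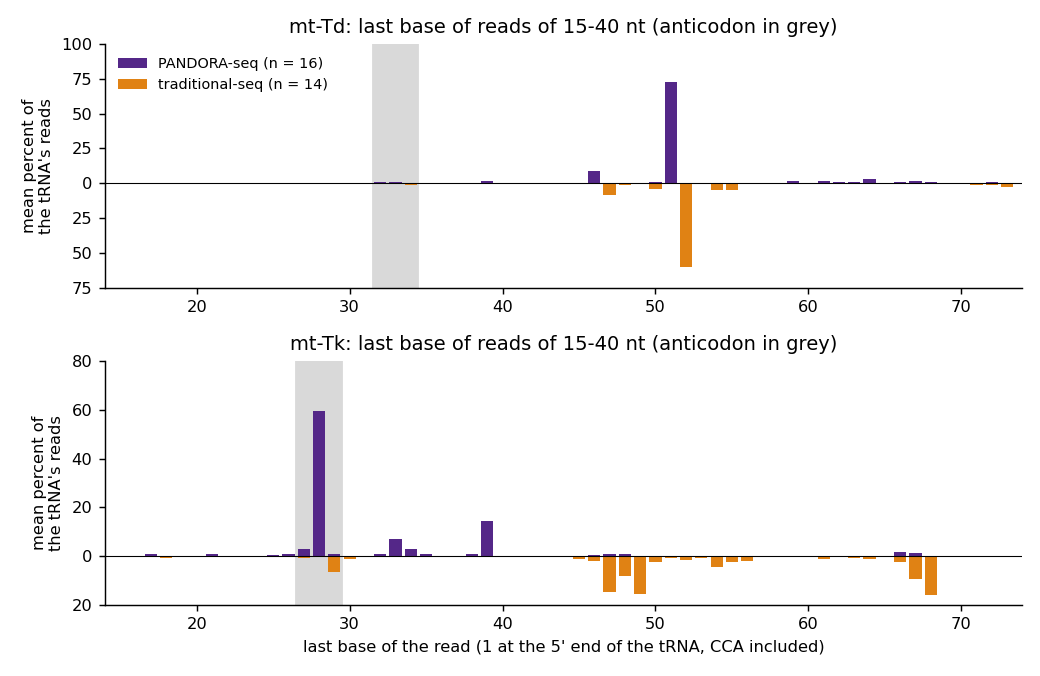
Share of the reads of 15–40 nt (percent of the tRNA's reads, mean over libraries) that end at each tRNA base, with PANDORA-seq drawn upward and traditional-seq downward. The mt-Td peaks of the protocols stand at bases 51 and 52, and the mt-Tk peak of PANDORA-seq at base 28 has no counterpart of like height in traditional-seq.

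PANDORA-seq reads ended earlier in other RNAs too. Among reads that begin with the first bases of the microRNA, so that a shorter length means an earlier 3′ end, miR-9-5p reads had a mean length of 21.1 nt ± 0.0503 (SD, n = 16) in PANDORA-seq and 22.5 nt ± 0.181 (SD, n = 14) in traditional-seq, and miR-128-3p reads had 20.8 nt ± 0.0658 and 22.2 nt ± 0.160. Among reads of the other 20 mitochondrial tRNAs that stopped at or up to 3 bases before the end of CCA, 63.6% ended with CCA and 16.8% with CC in traditional-seq, and 0.177% and 59.9% in PANDORA-seq. mt-Tk reads of that kind ended with CCA in 58.4% of 608 reads in traditional-seq and in 2.77% of 973 reads in PANDORA-seq. CCA was the most frequent of these ends in 18 of the 22 tRNAs in traditional-seq and in 0 in PANDORA-seq, where CC was in 17, so a low CCA share was common to these tRNAs in PANDORA-seq. When all PANDORA-seq ends were moved by 1 base toward the 3′ end, the share of last bases common to both protocols went from 6.90% to 76.0% for mt-Td and from 10.02% to 17.1% for mt-Tk. Over all reads, the ends of mt-Td fragments thus differed mostly by that 1 base, and those of mt-Tk fragments did not. Among the 5′ reads of mt-Tk alone, the leading ends also differed by 1 base. In PANDORA-seq 69.5% of the pooled WT reads and 62.9% of the AD reads ended at base 28. In traditional-seq 45 of 86 WT reads and 36 of 63 AD reads ended at base 29. Counting CC and CCA ends together, 3′ fragments took 1.54% ± 2.73 (SD, n = 16) of mt-Tk reads in PANDORA-seq and 25.4% ± 10.9 (SD, n = 14) in traditional-seq, with adjusted p = 2e-05 by the permutation test. For mt-Td these shares were 0.864% ± 1.09 and 4.04% ± 3.03, with adjusted p = 0.000528. The cause of the offset was not tested.

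**Figure D4:**
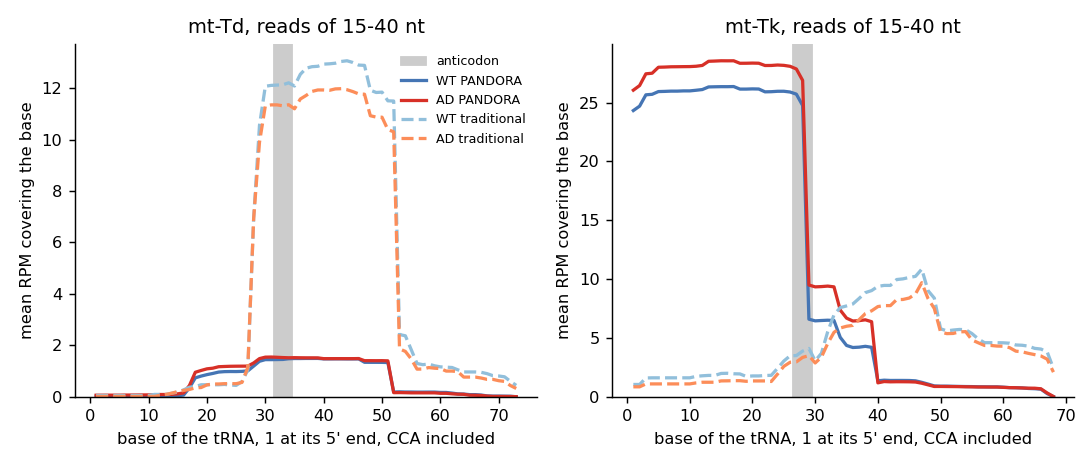
Mean RPM of reads of 15–40 nt over each tRNA base (1 is the 5′ end) in the 4 groups, as means over libraries with no error drawn and with the anticodon in grey. PANDORA-seq reads of mt-Tk cover the 5′ part up to the anticodon, traditional-seq reads of mt-Tk peak at base 47, and mt-Td reads of both protocols cover the anticodon arm and the bases after it.

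A few sequences carried most reads of each set in PANDORA-seq. The mt-Tk fragment 1–28 alone held 21990 reads, 58.0% of the mt-Tk reads of 15–40 nt, and was found in all 16 libraries. Its level was 2.46 RPM (lowest), 11.5 RPM (median) and 49.8 RPM (highest) in WT and 3.18, 15.1 and 29.3 RPM in AD. The fragment 1–39 held 13.03% of the reads, with 0.207, 2.25 and 5.91 RPM in WT and 1.06, 2.58 and 13.03 RPM in AD. The ranges of WT and AD overlapped for both fragments. Of the mt-Td reads of 15–40 nt, 27.2% were the fragment 18–51, at 0.0696, 0.376 and 0.899 RPM in WT and 0.0165, 0.204 and 2.05 RPM in AD.

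In traditional-seq the mt-Td reads were as concentrated and the mt-Tk reads were not. The mt-Td fragment 28–52 held 31.2% of 2273 reads, at 0.620, 4.86 and 7.67 RPM in WT and 2.20, 3.41 and 7.31 RPM in AD. The most frequent mt-Tk fragment, 32–49, held 4.87% of 2217 reads. The 5′ fragment 1–29, which is 1 base longer than the leading PANDORA-seq fragment, held 3.65%.

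Among longer reads, fragments of both tRNAs were lower in AD cortex. mt-Td reads of 43–45 nt were at 0.345 RPM (lowest), 1.22 RPM (median) and 2.77 RPM (highest) in the 8 WT libraries and at 0, 0.0490 and 0.437 RPM in the 8 AD libraries. Of the 8 AD libraries, 7 had less than the lowest WT library. mt-Tk reads of this length were at 0.359, 2.15 and 3.64 RPM in WT and at 0.0182, 0.105 and 0.789 RPM in AD, and again 7 of the AD values were under the lowest WT value. On the log2(RPM + 0.1) scale AD minus WT was -2.81 (SE 0.41) for mt-Td, 7.02-fold lower, and -2.91 (SE 0.48) for mt-Tk, 7.54-fold lower. Adjusted p was 0.00342 for each by the exact permutation test. These folds are of RPM + 0.1. The added 0.1 exceeds the AD median of mt-Td and nears that of mt-Tk, so it sets part of their size. The pooled reads behind these levels were 932 in WT and 76 in AD for mt-Td and 1274 and 122 for mt-Tk. AD replicate 6 alone gave 36 and 65 of these AD reads, and without it 40 and 57 were left. AD replicates 1 to 4 held 3, 2, 0 and 2 of the mt-Td reads.

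Most mitochondrial tRNAs shared this direction. Of the 22 mitochondrial tRNAs, 21 were lower in AD at 43–45 nt (95.5%), the median of the other 20 was -2.43, and 10 of the 22 (45.5%) had 7 or 8 AD libraries below every WT library. As a share of all mitochondrial tRNA reads of the same length, mt-Tk took 0.0838% ± 0.0475 (SD, n = 8) in WT and 0.0677% ± 0.0302 (SD, n = 8) in AD, and mt-Td 0.0488% ± 0.0162 and 0.0342% ± 0.0237. The log2 difference of this share was -0.10 with adjusted p = 0.98 for mt-Tk and -1.95 with adjusted p = 0.378 for mt-Td by the exact permutation test, where 1 AD library at 0 weighs on the mt-Td value. The share of all reads that are 43–45 nt long fell with the same libraries, as given above, and its part in the result was not tested. Relative to the reads of 43–45 nt alone, in place of all reads, AD minus WT was -2.69 with adjusted p = 0.0103 for mt-Td and -2.08 with adjusted p = 0.0308 for mt-Tk by the exact permutation test. The same 0.1 was added on both scales, whose units differ, so the sizes of these differences cannot be compared with those per all reads. Per 1000000 reads of 43–45 nt, mt-Td had 3.07 to 20.8 reads in WT and 0 to 4.10 in AD. For mt-Tk these were 1.67 to 22.5 in WT and 0.856 to 7.40 in AD. The AD library at 0 weighs on this mt-Td difference as well.

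**Figure D5:**
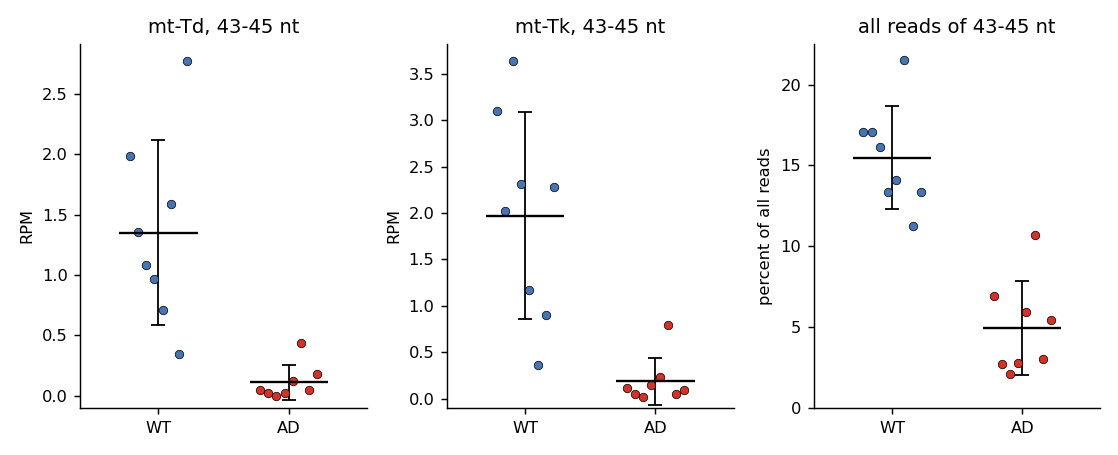
Level of exact mt-Td and mt-Tk reads of 43–45 nt (RPM), with the share of all reads that have this length (percent), in each WT and AD PANDORA-seq library. Each point is 1 library, the line is the mean and the bar the SD, and 7 of 8 AD points lie below every WT point for both tRNAs, with 1 AD library at 0.437 RPM for mt-Td and 0.789 RPM for mt-Tk.

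At 41–42 nt, between these classes, the AD levels were lower for mt-Tk, at 0.125 ± 0.0600 RPM (SD, n = 8) against 0.361 ± 0.219 RPM (SD, n = 8) in WT, a log2 difference of -0.92 (SE 0.30) with adjusted p = 0.0294 by the exact permutation test. That call was 1 of 3 among the 22 tRNAs (13.6%), and it was lost without WT replicate 1 or without AD replicate 1, 2, 3 or 6 (adjusted p from 0.0501 to 0.0544). It was also lost relative to the reads of 41–42 nt (-1.06, adjusted p = 0.122) and as a share of the mitochondrial tRNA reads of that length (-0.43, adjusted p = 0.728), both by the exact permutation test. The same 0.1 was added on these scales, so the sizes of these differences cannot be compared with -0.92. Only 3 of 8 AD libraries were under the lowest WT library, and 1 of the 22 tRNAs (4.55%) had 7 or 8. mt-Td had -0.56 (SE 0.30) with adjusted p = 0.192 by the exact test. In traditional-seq both tRNAs had 0 reads of 41–42 nt among the 169126545 reads of all 14 libraries, which allows up to 0.0177 RPM over the group (3 reads, counting error only). The PANDORA-seq means were 0.132 RPM for mt-Td and 0.243 RPM for mt-Tk, at least 7.45-fold and 13.7-fold higher. Levels were above 0 in 15 and 16 of the 16 PANDORA-seq libraries, and adjusted p was 1.37e-05 for each by the permutation test. Of the 22 tRNAs, 21 were higher (95.5%) and 0 lower (0%) in PANDORA-seq at this length. All reads of 41–42 nt took 2.95% to 8.09% of a PANDORA-seq library and 0.0106% to 0.313% of a traditional-seq library. The 14 traditional-seq libraries held 245643 reads of 41–42 nt, so that 0 reads allow up to 12.2 per 1000000 reads of that length, against 0 to 7.78 for mt-Td and 1.06 to 11.1 for mt-Tk in the PANDORA-seq libraries. Relative to the reads of 41–42 nt alone, a difference between the protocols was therefore not detectable at this depth.

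The 43–45 nt reads had other ends than the shorter reads of the same tRNA, which their length sets in part. A read of this length from base 1 must end at bases 43 to 45, where one of 15–40 nt cannot end. The files also stop at 45 nt, the length of the leading sequences 28–72 and 1–45. For mt-Td, most reads were 3′ fragments that stop 1 to 3 bases before the end of CCA. These were 873 of 932 WT reads (93.7%) and 69 of 76 AD reads (90.8%). No mt-Td read of 43–45 nt carried the whole CCA. From base 28 such a read would be longer than 45 nt, and a low CCA share was common in PANDORA-seq, as given above. The leading sequence, 28–72, began at the same base as the main traditional-seq fragment and held 38.8% of the reads, and the next, 29–72, held 15.5%. For mt-Tk, 38.9% of WT reads and 27.0% of AD reads started at base 1, and 57.1% and 70.5% were internal. Without AD replicate 6 the AD shares were 90.0% trimmed 3′ fragments for mt-Td and, for mt-Tk, 31.6% starting at base 1 and 64.9% internal. The leading mt-Tk sequence, 1–45, held 35.7%, and the fragments 3–46 and 3–47, which start 2 bases further in, held 19.5% and 14.8%. The pooled reads of this length gave 1.37 mt-Tk reads per mt-Td read in WT and 1.61 in AD (1.43 without AD replicate 6), against 17.3 and 18.8 at 15–40 nt. No ratio could be had in 1 AD library, which had 0 mt-Td reads.

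Counts of every distinct sequence in the PANDORA-seq libraries were compared by the quasi-likelihood test of edgeR, with a sequence called at adjusted p < 0.05 (Benjamini-Hochberg, over 188718 sequences) and a fold over 2. Of all tested sequences 1.88% were lower and 0.0403% higher in AD, and of those of 43–45 nt 19.7% were lower and 0.0171% higher. For mt-Td, 1 of 3 tested sequences was lower, the fragment 28–72, and for mt-Tk 3 of 17 were lower, the fragments 1–45, 3–47 and 3–46. All 4 were 44 or 45 nt long, and none was higher. They passed the filter on low counts mainly through the WT libraries, where they were high, with AD medians of 0 to 0.0229 RPM, so that their count is a description and adds no support to the summed levels.

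The mt-Td fragment 28–72 was at 0.148 RPM (lowest), 0.558 RPM (median) and 1.14 RPM (highest) in WT, and 6 of 8 AD libraries had 0 reads, with 0.0850 RPM in the highest. It had 383 reads in WT and 8 in AD, and a log2 fold change of -5.32 (SE 0.79) with adjusted p = 0.000661 by edgeR. The mt-Tk fragment 1–45 had 473 reads in WT and 26 in AD, with 3 AD libraries at 0, and a log2 fold change of -4.14 (SE 0.73) with adjusted p = 0.00308. The fragments 3–47 and 3–46 had -3.93 (SE 0.83) and -3.59 (SE 0.90), with adjusted p = 0.0121 and 0.0413. Fitted folds of sequences with libraries at 0 depend on the prior count. The folds and p-values of these fragments are, like their count, a description and add no support.

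At 15–40 nt, edgeR called 0 of 2 mt-Td and 0 of 14 mt-Tk sequences in PANDORA-seq, where 0.0271% of all sequences of that length were lower and 0.0464% higher. DESeq2 and the likelihood ratio test also called 0, and 0 of the 16 had an unadjusted p under 0.05. The mt-Tk fragment 1–28, whose reads end in the anticodon, had a log2 fold change of -0.05 (SE 0.52) with adjusted p = 0.987 by edgeR. The fragment 1–39 had 1.01 (SE 0.62) with adjusted p = 0.635 by edgeR. In traditional-seq, 3 mt-Td sequences and 0 mt-Tk sequences were frequent enough to be tested, and edgeR called 0 of them (0 at an unadjusted p under 0.05) and 0 of all 24841 sequences (0%, with 360 at an unadjusted p under 0.05). DESeq2 and the likelihood ratio test also called 0. On simulated counts with the same depths, edgeR found 60 of 68 tested sequences with a 16-fold change in PANDORA-seq but 5 of 80 with a 4-fold change. In that simulation the smaller changes of single sequences were thus mostly missed. Few sequences were changed there, drawn at random from all tested ones, so these rates do not carry over to the member sequences.

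Among reads with 1 mismatch, base 9 of mt-Tk had the highest pooled rate of the 2 tRNAs, in traditional-seq. The tRNA carries A at base 9, a position at which mitochondrial tRNA-Lys is known to hold a methylated adenosine whose methyl group AlkB can remove. Rates are over all reads of 15–40 nt with at most 1 mismatch that cover the base at least 2 bases from either read end. In traditional-seq, 209 of 481 such mt-Tk reads differed at base 9, or 43.5% (95% Wilson interval 39.1 to 47.9, counting error only). The most frequent change was A9G, in 113 reads. In PANDORA-seq, 685 of 40940 reads differed, or 1.67% (1.55 to 1.802). Libraries with at least 20 reads ranged from 18.8% to 68.8% (10 traditional-seq libraries) and from 0.775% to 7.29% (16 PANDORA-seq libraries), so the ranges were apart. Base 9 had 20 reads in too few libraries for a test over all 30. Of the member bases, 6 could be tested, all in mt-Tk and 3′ of its anticodon loop, and 0 of them passed between protocols (adjusted p from 0.498 to 0.996, permutation test, 0 at an unadjusted p under 0.05), against 231 of 1000 bases of all mitochondrial tRNAs (23.1%). In mt-Td, 41 bases in PANDORA-seq and 26 in traditional-seq were covered by at least 200 pooled reads, and none of these had a mismatch rate above 1.05%. Base 9 of mt-Td was not among them in either protocol.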

How the data were processed

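Small RNAs of 30 cortex libraries were sequenced after NEBNext library preparation. The authors processed the reads with SPORTS, and the deposited values are raw counts of reads for each distinct sequence of 15 to 45 nt (PANDORA-seq) or 15 to 42 nt (traditional-seq). The labels name the build mm39. The reference used here was GENCODE M21 (GRCm38) with CCA added to the 22 mitochondrial tRNAs, so coordinates are those of GRCm38. Genotype and protocol came from the sample titles and labels. Depth ran from 9370669 to 105876141 reads, and in a single library 3 reads were worth 0.0283 to 0.0546 RPM in PANDORA-seq and 0.176 to 0.320 RPM in traditional-seq. Intervals and these floors cover counting error only.

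Whole sequences were matched exactly and in the sense direction. Reads were summed by first base, last base and length in each library and scaled to the total reads of that library (RPM). Levels were compared as log2(RPM + 0.1) and shares of fragment types in percent by two-sided exact permutation tests over libraries (12870 splits for 8 against 8, smallest p 0.000155, and 3432 splits for 7 against 7, smallest p 0.000583) or by 100000 resamples for the protocols. Benjamini-Hochberg adjustment covered all 22 mitochondrial tRNAs. Shares were tested for tRNAs with at least 10 reads in every library compared, and cut sites where a share averaged at least 5% over the libraries of a protocol. For the comparison of the protocols, either protocol sufficed. A permutation of genotype labels within protocols tested the difference between the protocols' AD effects. Counts of all distinct sequences were fitted with edgeR 4.0.16 (TMM, quasi-likelihood, R 4.3.3), and DESeq2 1.42.0 was an alternative. The code was tested on simulated data. Python 3.11.15, numpy 2.4.6 and scipy 1.17.1 were used.

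Named sequences were the most frequent in each tRNA, protocol and length class, and the called ones. Named bases were cut sites averaging at least 5% and bases with a mismatch rate of at least 5% from at least 200 pooled reads. The members, lists and rules were chosen with earlier results of these data known. Replicate numbers were not taken to pair the samples. Alternatives were other pseudocounts, scalings, filters, models and libraries left out. Reads of 1 mismatch to the tRNAs were used for mismatch rates and, where stated, for fragment types and as an alternative, and mRNA data of the study were not used here.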

Additional observations from a re-analysis of the deposited data

Results flagged for a closer look

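In 5 of 41 groups, 1 library stood apart from the rest by Dixon's criterion at the 95% level, which chance gives in about 1 in 20 groups. WT PANDORA-seq replicate 6 had the lowest share of mt-Tk 5′ fragments at 15–40 nt among the WT PANDORA-seq libraries, 53.35% against 82.92% in the nearest of them. The same library had the highest share of internal mt-Tk fragments in that group, 27.34% against 14.76% in the nearest library. AD PANDORA-seq replicate 6 had the highest level of 43–45 nt reads among AD libraries for both tRNAs, 0.4371 RPM for mt-Td against 0.1795 RPM in the nearest library, and 0.7893 RPM for mt-Tk against 0.2299 RPM. It is the one AD library that overlapped the WT range in both comparisons. AD PANDORA-seq replicate 1 had the highest share of mt-Tk reads with 1 mismatch among the AD PANDORA-seq libraries, 15.26% against 13.24% in the nearest of them.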

How the results depend on the processing

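Of 837 alternatives tried, 821 stayed on the same side of the threshold or, for counts, within 1.5 times. Differences that were not called could turn sign among these. With each library left out, the AD minus WT value at 15–40 nt in PANDORA-seq was -0.45 to 0.088 for mt-Td and -0.091 to 0.44 for mt-Tk. The 821 alternatives include the protocol comparisons relative to reads of 41–42 nt, which say nothing about stability because the difference was not detectable on that scale. As shares of all mitochondrial tRNA reads of the same length, 3 AD calls were lost: mt-Td at 43–45 nt (-1.95, adjusted p = 0.378), mt-Tk at 43–45 nt (-0.10, adjusted p = 0.98) and mt-Tk at 41–42 nt (-0.43, adjusted p = 0.728), all by the exact permutation test. The mt-Tk value at 41–42 nt was -1.06 (adjusted p = 0.122) relative to the reads of that length, and -1.09 to -0.78 (adjusted p up to 0.0544) with each library left out, the call being lost without WT replicate 1 or AD replicate 1, 2, 3 or 6. With the replicate number as a block it was -0.92 (adjusted p = 0.0859) and the mt-Tk value at 43–45 nt was -2.91 (adjusted p = 0.0573), while mt-Td at 43–45 nt kept its call at -2.81 (adjusted p = 0.0397). The numbers gave no clear sign of pairing the samples, though so few pairs cannot exclude it. Same-numbered WT and AD libraries deviated with correlations of -0.52 to 0.40 in PANDORA-seq and -0.51 to 0.61 in traditional-seq. Of the WT libraries, 0 of 8 and 1 of 7 correlated best with their own number. The block changed no other call. The higher mt-Tk level in PANDORA-seq at 15–40 nt was 0.81 (adjusted p = 0.154) among WT and 1.26 (adjusted p = 0.0277) among AD libraries by the exact permutation test. The share of trimmed 3′ mt-Tk fragments reversed, from -8.99 to 5.13 points (PANDORA-seq minus traditional-seq), when each distinct sequence counted once. A looser filter called 3 mt-Td sequences in place of 1, and a fit of 15–40 nt sequences alone called 0 for mt-Td and 0 for mt-Tk, having left out the 4 called ones. With each library left out, edgeR called 2 to 3 mt-Tk sequences. The causes of these shifts were otherwise not tested. Depth limits the mt-Td types and the 41–42 nt class, where most libraries hold few reads. With reads that mismatch at another base left out, chosen after seeing the data, the pooled rate at base 9 of mt-Tk was 49.1% in traditional-seq and 1.88% in PANDORA-seq.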

Other observations

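Bases 10 and 19 of mt-Tk were named after their values were seen. Base 10 of mt-Tk, beside the adenosine described above, had a mismatch in 2.95% of 40948 PANDORA-seq reads, mostly G10A (987 of 1209 reads), and in 6 of 487 traditional-seq reads (1.23%). Base 19 of mt-Tk had a mismatch in 15 of 471 traditional-seq reads (3.18%), with a rate of 50% in the highest library and a median of 0% over 11 libraries. Reads with 1 mismatch to mt-Tk took 13.2% ± 1.604 (SD, n = 16) of the mt-Tk reads of 15–40 nt in PANDORA-seq and 28.9% ± 7.64 (SD, n = 14) in traditional-seq, and for mt-Td 9.41% ± 4.34 and 15.97% ± 5.78.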
